A study of Homo sapiens with 12 samples.

Results

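The 26 genes described here make, sense and move cholesterol, and were chosen by name: enzymes from acetoacetyl-CoA to the last reductions of the sterol ring, regulators that switch these enzymes on, and proteins that carry sterol inside the cell. Each of the 26 symbols was found by its Ensembl gene among the 63152 genes of the count table, and all 26 were among the 16839 genes with enough counts to test. They comprised 5 enzymes of the mevalonate pathway, 2 of isoprenoid synthesis, 3 of squalene and lanosterol synthesis, 9 of the sterol ring, 4 regulators and 3 transport proteins.

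Poly-A RNA was sequenced from cultures of HepG2S1, a line derived from the human hepatoblastoma line HepG2 by growth in rising doses of the kinase inhibitor sorafenib over several months; the labels' cell line field reads HepG2. There were 4 libraries without acriflavine (given here as control, listed as treatment none, while the protocol describes a DMSO vehicle), 4 with 2.5 µM and 4 with 5 µM acriflavine, an acridine dye mixture used as an antiseptic and known to block the pairing of hypoxia-inducible factor subunits. Every culture, controls included, was sorafenib-selected, was near confluence at the start, received fresh medium that contained fetal calf serum, insulin and dexamethasone, and was collected after 24 h. The 4 libraries of a group are described as biological replicates, and all come from 1 derived line, so the p-values measure the spread between these cultures. Controls had library totals of 11891849 to 14024568 counts, the 2.5 µM libraries 13095641 to 15115510 and the 5 µM libraries 10733567 to 15116842.

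The liver label was checked on 13 markers of hepatocytes and hepatoblastoma. In controls 12 of 13 were under 1 CPM (counts scaled to a common library size), and ALB, AFP, AHSG, FOXA2 and GPC3 had no count in any control library. The exception, CPS1, a urea cycle enzyme, had 2185 ± 45 CPM in controls, 1778 ± 12.6 at 2.5 µM and 945 ± 15 at 5 µM (mean ± SD, n = 4 each). Summed over the list, control libraries had 2141 to 2244 CPM, those at 2.5 µM 1767 to 1797 and those at 5 µM 931 to 965. Of 6 cholangiocyte markers, summed at 3622 to 4074, 3525 to 3991 and 1486 to 1784 CPM in the same order, KRT7 was the highest and SPP1 had no count in controls. The 7 fibroblast and stellate cell markers, led by DCN, summed to 626 to 777, 595 to 650 and 688 to 744 CPM, with COL1A2 and COL3A1 at no count in controls. The 6 endothelial and 6 blood markers summed to at most 0.537 and 1.1 CPM in controls and 8.69 and 4.54 CPM at 5 µM. The hepatocyte sum fell with each dose and the cholangiocyte sum at 5 µM, while the fibroblast sums at 5 µM lay within the control range. These sums were set by their most abundant genes, and other markers moved otherwise. From control to 5 µM, KRT7 fell from 3612 to 1580 CPM and KRT19 from 203 to 51.4. SOX9 rose from 1.73 to 15.8, CFTR from 0.04 to 3.93, EPCAM from 3.57 to 5.88 and FGB from 0.34 to 2.04. DCN fell from 563 to 450 and LUM from 119 to 82.1, while ACTA2 rose from 8.46 to 139 and PDGFRB from 4.51 to 16.4. The part of these markers in the results on cholesterol genes was not tested.

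Animal cells build cholesterol from acetyl-CoA through mevalonate, the isoprenoid diphosphates, squalene and lanosterol, and then trim, shift and reduce the lanosterol ring. The genes of this route share a switch. SREBP transcription factors, encoded by SREBF1 and SREBF2, are held in the endoplasmic reticulum by SCAP and INSIG proteins when sterol is plentiful. When sterol falls, SCAP carries them to the Golgi, where proteases free the active part that enters the nucleus and binds sterol regulatory elements, usually together with NF-Y on CCAAT boxes and Sp1 on GC boxes. Cholesterol taken up with lipoproteins reaches the same pool through NPC2 and NPC1, which pass it out of the lysosome.

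Promoter letters of members that moved in each direction are shown because this shared switch acts there. The windows run from 250 bases before to 50 bases after each start in RefSeq's GRCh38.p14 annotation, and 23 of the 26 members had an entry (29 promoters in all); ACAT2, FDFT1 and SQLE had none. Motifs were searched on both strands. A strict sterol regulatory element, TCACNCCAC, was found in 1 of 23 members (SREBF2) and in 1.39% of all 27305 genes with such a window. CCAAT was found in 17 of 23 members against 39.7% of all genes, the GC box GGGCGG in 21 against 48.3%, and the E-box CACGTG in 4 against 8.78%. These are descriptions of letters in a window: they show no binding, and a missing match says only that the letters are not in that window.

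The stretches below are 70 bases each, written 5′ to 3′ on the gene's strand, and all lie upstream of the start. Capitals mark the sterol regulatory element of SREBF2 and every CCAAT, which reads ATTGG when it lies on the other strand. They come from RefSeq on GRCh38.p14: SREBF2 at chr22:41832947-41833016, plus strand, INSIG1 at chr7:155297683-155297752, plus strand, HMGCS1 at chr5:43313523-43313592, minus strand, MVD at chr16:88663206-88663275, minus strand, EBP at chrX:48521713-48521782, plus strand, NSDHL at chrX:152830900-152830969, plus strand, SC5D at chr11:121292690-121292759, plus strand, and TM7SF2 at chr11:65111773-65111842, plus strand.
SREBF2: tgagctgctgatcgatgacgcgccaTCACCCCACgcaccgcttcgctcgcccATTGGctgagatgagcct
INSIG1: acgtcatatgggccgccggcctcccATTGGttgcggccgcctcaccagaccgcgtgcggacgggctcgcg
HMGCS1: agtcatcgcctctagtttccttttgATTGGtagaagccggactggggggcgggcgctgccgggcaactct
MVD: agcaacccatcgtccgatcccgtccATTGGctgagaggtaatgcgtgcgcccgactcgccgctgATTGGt
EBP: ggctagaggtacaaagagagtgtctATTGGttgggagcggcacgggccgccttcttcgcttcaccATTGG
NSDHL: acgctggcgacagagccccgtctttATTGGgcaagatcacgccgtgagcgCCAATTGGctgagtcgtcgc
SC5D: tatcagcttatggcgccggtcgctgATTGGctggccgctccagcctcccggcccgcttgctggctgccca
TM7SF2: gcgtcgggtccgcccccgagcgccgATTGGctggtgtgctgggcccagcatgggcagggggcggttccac
SREBF2, INSIG1, MVD and EBP fell at both doses, HMGCS1 fell at 2.5 µM, NSDHL rose at 5 µM, and SC5D and TM7SF2 rose at both doses. The CCAAT letters were present on both sides: at 5 µM against control they were in 4 of the 4 members with a window that rose, 9 of 13 that fell and 4 of 6 that did not pass, and at 2.5 µM in 4 of 7 that rose and 13 of 15 that fell.

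Most of the 26 genes were lower with acriflavine. At 5 µM, 16 fell, 4 rose and 6 did not pass an adjusted p of 0.05 in edgeR's quasi-likelihood test against control, where 39.4% of all tested genes fell and 38.7% rose. At 2.5 µM, 18 fell, 7 rose and 1 did not pass, against a background of 28.5% lower and 30.7% higher. The median log2 fold change of the 26 was -0.48 at 2.5 µM and -0.40 at 5 µM, while the median over all tested genes was 0.02 and -0.01. At least a 2-fold fall was seen in 5 members at 2.5 µM (MVK, SQLE, MSMO1, DHCR7 and INSIG1; background 3.74%) and in 7 at 5 µM (the same 5 with MVD and CYP51A1; background 10.8%). At least a 2-fold rise was seen in TM7SF2 at 2.5 µM (background 6.35%) and in TM7SF2 and SC5D at 5 µM (background 15.6%). With every treated library beyond every control, 17 members fell and 6 rose at 2.5 µM (background 24.4% and 26.1%), and 15 fell and 4 rose at 5 µM (background 35.3% and 35.5%). Both comparisons use the same 4 controls. In bulk RNA, fewer cells that express a gene and less of its RNA per cell cannot be told apart.

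**Figure D1:**
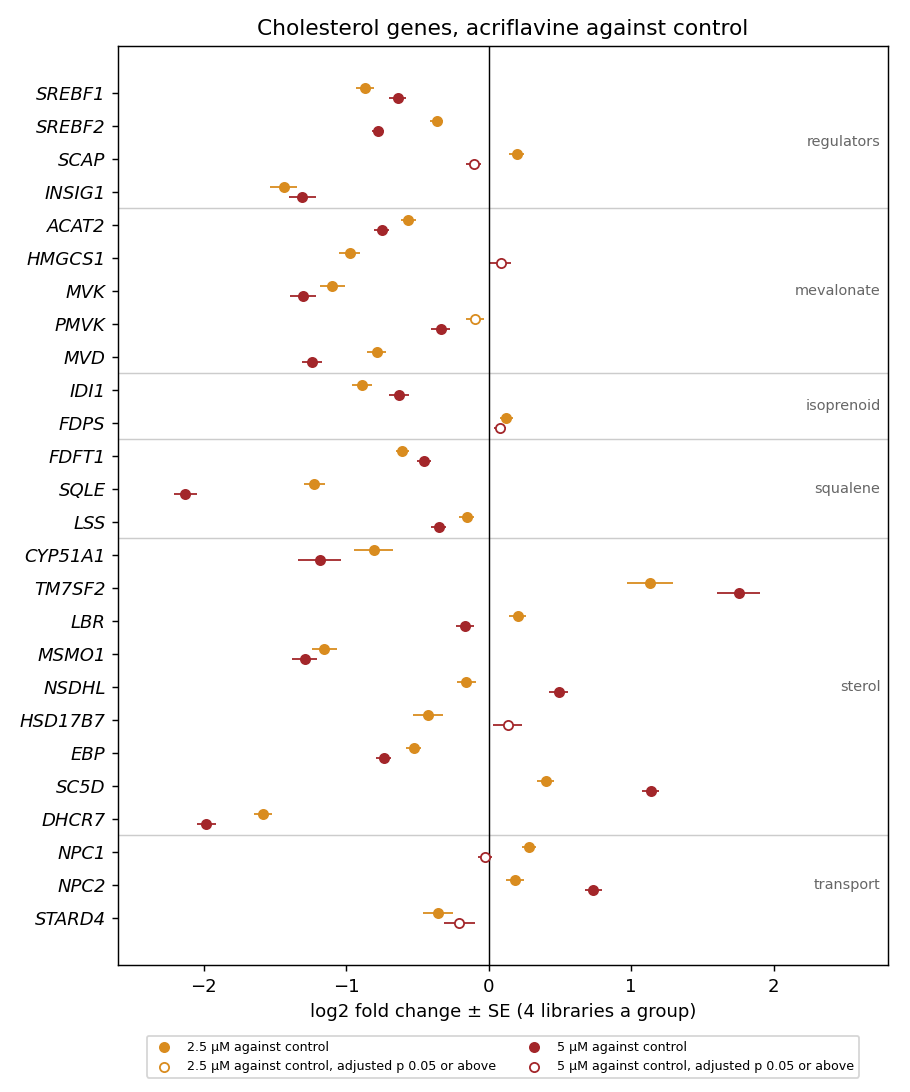
Log2 fold change against control (horizontal axis, edgeR estimate ± SE, 4 libraries a group) of the 26 genes, ordered by role, for 2.5 µM (orange) and 5 µM (red); open symbols had an adjusted p of 0.05 or above. Most symbols lie left of 0, down to -2.13 for SQLE at 5 µM. TM7SF2, SC5D, NPC2 and FDPS lie right of 0 at both doses, FDPS with an open symbol at 5 µM.

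Between the doses the genes did not move as one. At 5 µM against 2.5 µM, 12 members were lower, 9 were higher and 5 did not pass, with a background of 34.8% lower and 33.6% higher, and the median was -0.16 against -0.01 over all tested genes. HMGCS1 differed at least 2-fold between the doses (background 10.1% higher, 3.00% lower), and SQLE joined it when 5 µM library 4 was left out (-1.01 on the log2 scale). Groups did not overlap for 11 lower and 9 higher members (background 31.2% and 31.0%). The RNA of the 19 synthesis enzymes summed to 1526 ± 11.5 CPM in controls (1511 to 1537), 1159 ± 16.2 at 2.5 µM (1143 to 1178) and 1235 ± 23.8 at 5 µM (1216 to 1269), so that the sum was 75.9% of control at the lower dose and 80.9% at the higher. This sum is dominated by the enzymes with the most counts and is given without a test.

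Among the regulators, both SREBP genes fell, by different amounts. SREBF2 (ENSG00000198911), whose product mainly drives cholesterol genes, had 205, 205, 216 and 206 CPM in controls, 164, 158, 155 and 168 at 2.5 µM and 118, 125, 122 and 120 at 5 µM. The 3 groups did not overlap and stood in the order of the dose. Its log2 fold change was -0.37 ± 0.04 (SE) at 2.5 µM (adjusted p = 1.17e-08) and -0.78 ± 0.04 at 5 µM (adjusted p = 4.9e-17).

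SREBF1 (ENSG00000072310), whose product also drives fatty acid genes, had 97.0, 87.1, 97.0 and 80.2 CPM in controls, 50.9, 48.0, 49.2 and 50.0 at 2.5 µM, and 60.5, 55.1, 61.9 and 54.6 at 5 µM. The lowest values were those at 2.5 µM, and no library of a group reached into another group. It fell by 0.87 on the log2 scale at 2.5 µM (SE 0.06, adjusted p = 6.61e-14) and by 0.64 at 5 µM (SE 0.06, adjusted p = 2.35e-11), and was higher at 5 µM than at 2.5 µM by 0.23 (adjusted p = 0.00205). SREBF1 shares 6.92% of its exon bases with RAI1 on the opposite strand, which had 10534 counts over the 12 libraries against 10240 of SREBF1.

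The balance of the SREBP genes was taken as the log2 ratio of SREBF1 to SREBF2 counts within each library, which no scaling between libraries can move. It was -1.08, -1.24, -1.15 and -1.36 in controls, -1.69, -1.72, -1.66 and -1.75 at 2.5 µM, and -0.97, -1.18, -0.98 and -1.13 at 5 µM. All 4 libraries at 2.5 µM lay below every control, and the 5 µM libraries overlapped the controls. The difference from control was -0.50 at 2.5 µM (exact two-sided permutation test, p = 0.0286, the smallest that 4 against 4 can give; 0.0429 after Benjamini-Hochberg adjustment over 6 ratio tests). At 5 µM it was 0.14 (exact permutation p = 0.143, adjusted 0.171), a difference that did not pass. The 2 doses differed by 0.64 (exact permutation p = 0.0286, adjusted 0.0429).

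INSIG1 (ENSG00000186480), the sterol-dependent anchor of SCAP in the endoplasmic reticulum and itself an SREBP target, had 53.7, 45.7, 47.5 and 36.4 CPM in controls. It had 16.1, 18.1, 17.6 and 15.9 CPM at 2.5 µM and 16.2, 17.4, 20.4 and 19.6 at 5 µM. Every treated library was far below the lowest control, and the doses overlapped. The log2 fold change was -1.44 ± 0.09 at 2.5 µM (adjusted p = 6.61e-14) and -1.31 ± 0.09 at 5 µM (adjusted p = 1.22e-13). SCAP, the SREBP escort, went the other way at the lower dose, with 91.3 ± 5.37 CPM in controls, 105 ± 4.46 at 2.5 µM and 85 ± 3.49 at 5 µM (SD, n = 4). It rose at 2.5 µM by 0.20 (adjusted p = 0.00153), fell from there to 5 µM by 0.30 (adjusted p = 5.78e-06), and did not pass at 5 µM against control (-0.10, adjusted p = 0.0735). That last comparison passed without control 1 (-0.13, adjusted p = 0.0490), without control 2 (-0.14, 0.0205) and without 5 µM library 2 (-0.13, 0.0388).

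**Figure D2:**
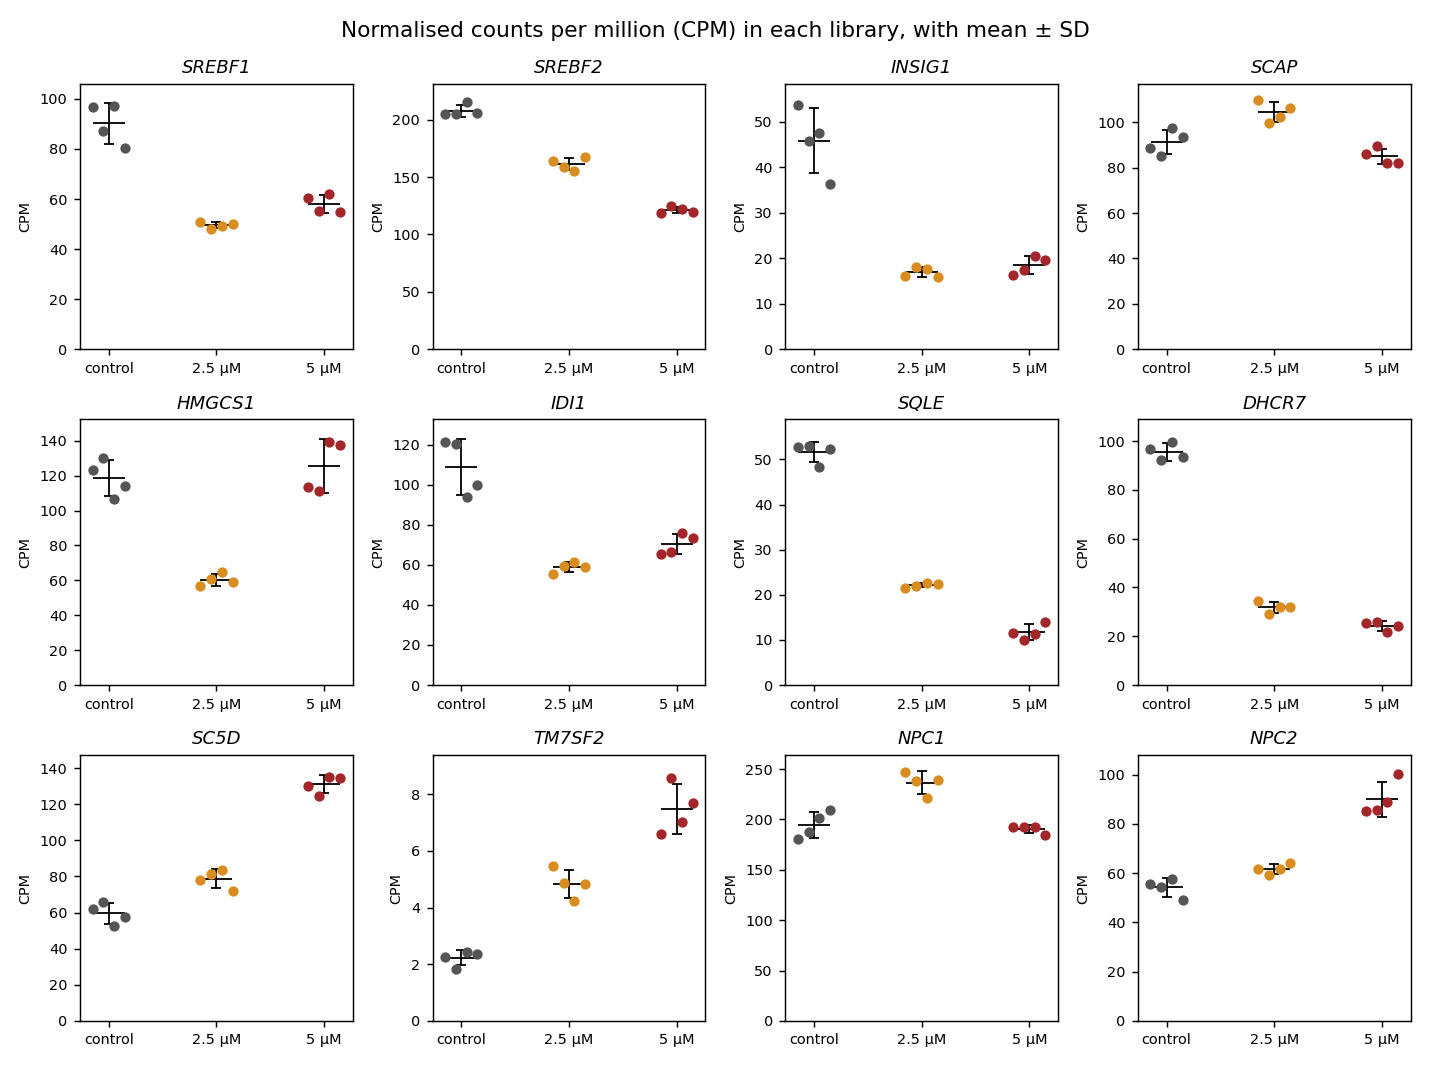
Normalised counts as CPM (vertical axis, from 0, 1 scale per gene) of 12 of the 26 genes in each of the 12 libraries (points), with the group mean and SD (n = 4), for control, 2.5 µM and 5 µM. SREBF2, SQLE and DHCR7 step down with dose, SC5D, TM7SF2 and NPC2 step up, and HMGCS1 is low at 2.5 µM and back within the control range or above it at 5 µM.

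In the mevalonate pathway, 4 of 5 enzymes fell at each dose. HMGCS1 (ENSG00000112972), the cytosolic HMG-CoA synthase, had 123, 130, 107 and 114 CPM in controls, 56.8, 60.8, 64.8 and 59.1 at 2.5 µM, and 113, 111, 140 and 138 at 5 µM. The 2.5 µM libraries lay far below all others, and the 5 µM libraries overlapped the controls and reached above them. It fell at 2.5 µM by 0.98 on the log2 scale (SE 0.08, adjusted p = 1.68e-10) and was 2.08-fold higher at 5 µM than at 2.5 µM (adjusted p = 2.32e-11). At 5 µM against control the difference was 0.08 ± 0.07 (adjusted p = 0.292).

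The other mevalonate enzymes had no such return. MVK, the kinase of mevalonate, had 23.7, 25.4, 29 and 24.3 CPM in controls, 12.4, 11.1, 11.8 and 12.4 at 2.5 µM and 11.1, 10.4, 10.7 and 9.37 at 5 µM. It fell 2.14-fold at 2.5 µM and 2.47-fold at 5 µM (adjusted p = 9.69e-13 and 6.24e-15), and the doses overlapped. MVK shares 4.72% of its exon bases with MMAB on the opposite strand, which had 3454 counts over the 12 libraries against 2461 of MVK. MVD, the decarboxylase that yields isopentenyl diphosphate, fell from 51.9 ± 2.58 CPM to 30.0 ± 2.06 and 22 ± 1.41 (log2 fold change -0.79 and -1.24, adjusted p = 6.38e-12 and 3.59e-17). ACAT2, the cytosolic thiolase of the first step, fell from 106 ± 5.98 CPM to 71.7 ± 2.41 and 63.0 ± 1.76 (-0.57 and -0.75, adjusted p = 3.35e-11 and 1.03e-14). ACAT2 shares 9.23% of its exon bases with TCP1 on the opposite strand, which had 41619 counts over the 12 libraries against 12516 of ACAT2, and the strand setting of the counting is not given in the sources used here. PMVK, the kinase of phosphomevalonate, was 54.3 ± 4.29, 50.8 ± 3.40 and 43.0 ± 1.76 CPM: it did not pass at 2.5 µM (-0.09, adjusted p = 0.212) and fell at 5 µM (-0.34, adjusted p = 2.1e-05).

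The pair of isoprenoid enzymes parted. IDI1, the isomerase of isopentenyl diphosphate, had 121, 121, 93.9 and 99.7 CPM in controls, 55.3, 59.4, 61.6 and 59.1 at 2.5 µM and 65.6, 66.6, 75.8 and 73.3 at 5 µM. All treated libraries lay below all controls, and those at 5 µM lay above those at 2.5 µM. The log2 fold change was -0.89 ± 0.07 at 2.5 µM (adjusted p = 3.03e-11) and -0.63 ± 0.07 at 5 µM (adjusted p = 6.32e-09), and the rise between the doses was 0.26 (adjusted p = 0.00269). FDPS, which makes farnesyl diphosphate, was 232 ± 13.2 CPM in controls, 253 ± 4.49 at 2.5 µM and 245 ± 5.39 at 5 µM, with all 3 groups overlapping. Its rise at 2.5 µM was 0.12 (adjusted p = 0.0164) and was lost without control 1 (0.11, adjusted p = 0.0575), control 2 (0.10, 0.0820) or 2.5 µM library 4 (0.10, 0.0812). At 5 µM it did not pass (0.08, adjusted p = 0.101). The 8 FDPS pseudogenes held 22.4% to 26.7% of the counts of gene and pseudogenes together, and with their counts added the rise at 5 µM was 0.11 (adjusted p = 0.0245). For FDPS alone the 5 µM comparison also passed with RLE scaling (0.11, adjusted p = 0.0304), upper quartile scaling (0.13, 0.00747), library size scaling (0.22, 1.59e-05), a stricter count filter (0.12, 0.0118) and DESeq2 (0.11, 0.0257).

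All 3 enzymes that make and close squalene fell at both doses. SQLE (ENSG00000104549), squalene epoxidase, an oxygen-dependent enzyme, had 52.7, 53.1, 48.2 and 52.4 CPM in controls, 21.5, 22, 22.7 and 22.3 at 2.5 µM and 11.5, 9.88, 11.3 and 14.1 at 5 µM. The groups stood apart by more than their own ranges. The fall was 2.33-fold at 2.5 µM (log2 fold change -1.22 ± 0.07, adjusted p = 1.29e-15) and 4.38-fold at 5 µM (-2.13 ± 0.08, adjusted p = 8.01e-22), the lowest log2 fold change of the 26 genes. FDFT1, squalene synthase, had 152, 155, 155 and 149 CPM in controls, 98.9, 97.2, 98.8 and 106 at 2.5 µM, and 108, 114, 115 and 109 at 5 µM. It was lowest at 2.5 µM (-0.61 ± 0.05, adjusted p = 4.32e-13) and less far down at 5 µM (-0.45 ± 0.05, adjusted p = 1.13e-10; 0.15 between doses, adjusted p = 0.00485). LSS, lanosterol synthase, changed least, with 126 ± 2.28, 113 ± 6.74 and 98.7 ± 5.48 CPM (-0.16 and -0.35, adjusted p = 0.00970 and 2.31e-07).

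The sterol ring enzymes went in both directions: of 9, 6 fell and 3 rose at 2.5 µM, and 5 fell and 3 rose at 5 µM. DHCR7 (ENSG00000172893), the reductase that turns dehydrocholesterol into cholesterol, had 97.0, 92.1, 99.8 and 93.3 CPM in controls, 34.6, 29.2, 31.8 and 32.0 at 2.5 µM, and 25.4, 26, 21.5 and 24.1 at 5 µM. It fell 3.00-fold and 3.95-fold (log2 fold change -1.58 ± 0.06 and -1.98 ± 0.07, adjusted p = 1.76e-20 and 1.55e-23), with no overlap between any groups. MSMO1, the methyl sterol oxidase, fell from 28.1 ± 2.749 CPM to 12.6 ± 0.928 and 11.5 ± 0.537 (-1.15 and -1.29, adjusted p = 2.3e-13 and 4.79e-15), and the doses overlapped. EBP, the isomerase that shifts the ring's double bond, fell from 171 ± 10.8 CPM to 119 ± 5.15 and 103 ± 4.90 (-0.53 and -0.74, adjusted p = 1.01e-10 and 9.34e-15).

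Rises stood beside these falls. SC5D (ENSG00000109929), the desaturase that acts just before DHCR7, had 61.8, 66.0, 52.8 and 57.4 CPM in controls, 78.3, 81.2, 83.8 and 71.8 at 2.5 µM, and 130, 125, 135 and 135 at 5 µM. The groups did not overlap and rose with dose. Its log2 fold change was 0.40 ± 0.06 at 2.5 µM (adjusted p = 1.05e-06) and 1.14 ± 0.06 at 5 µM (adjusted p = 4.33e-18), a 2.199-fold rise. TM7SF2 (ENSG00000149809), a sterol reductase of the endoplasmic reticulum, had 2.27, 1.83, 2.42 and 2.37 CPM in controls, 5.45, 4.85, 4.24 and 4.84 at 2.5 µM and 6.59, 8.59, 7.03 and 7.69 at 5 µM. Every library at a higher dose exceeded every library at a lower one. The rise was 2.19-fold and 3.38-fold (1.13 ± 0.16 and 1.76 ± 0.15, adjusted p = 3.04e-07 and 1.56e-12). TM7SF2 had 770 counts over all 12 libraries, and 0.47% of its exon bases are shared with VPS51 on the same strand, which had 11850.

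LBR, the lamin B receptor of the inner nuclear membrane, catalyses the same reduction as TM7SF2. It had 67.9, 70.9, 61.7 and 59.9 CPM in controls, 76.5, 73.4, 78.8 and 71.8 at 2.5 µM and 58.6, 64.5, 54.1 and 55.9 at 5 µM. It rose at 2.5 µM (0.20 ± 0.06, adjusted p = 0.00487) and was lower at 5 µM than at 2.5 µM (-0.37 ± 0.06, adjusted p = 3.35e-06). At 5 µM against control the groups overlapped and the fall of 0.16 on the log2 scale (adjusted p = 0.0180) was lost without control 2 (-0.13, adjusted p = 0.0768), 5 µM library 3 (-0.13, 0.0813) or 5 µM library 4 (-0.15, 0.0534). It was also lost in DESeq2 (-0.13, 0.0665) and with scaling by library size alone (-0.03, 0.680). The same held with RLE scaling (-0.13, 0.0510), upper quartile scaling (-0.12, 0.0931) and a stricter count filter (-0.12, 0.082).

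NSDHL and HSD17B7, the dehydrogenase and the ketone reductase of the demethylation complex in which MSMO1 works, were lowest at 2.5 µM. NSDHL had 56.4, 58.3, 60.3 and 63.5 CPM in controls, 55.1, 51.8, 51.4 and 55.4 at 2.5 µM and 73.4, 78.6, 94.7 and 87.7 at 5 µM. The rise at 5 µM was 0.49 ± 0.06 against control (adjusted p = 2.35e-08), with every 5 µM library above every control. Its fall at 2.5 µM was slight (-0.16, adjusted p = 0.0398) and was lost without control 4 (-0.13, adjusted p = 0.118), 2.5 µM library 2 (-0.14, 0.0930) or library 3 (-0.14, 0.0954). Library size scaling also ended this call (-0.11, 0.142). HSD17B7 had 10.7 ± 0.678, 8.02 ± 0.534 and 11.8 ± 1.08 CPM: it fell at 2.5 µM (-0.42 ± 0.10, adjusted p = 0.000797), was higher at 5 µM than at 2.5 µM (0.56 ± 0.10, adjusted p = 1.47e-05) and did not pass at 5 µM against control (0.13, adjusted p = 0.222).

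CYP51A1, the lanosterol demethylase, is uncertain in level, since its pseudogenes held more counts than the gene itself. The gene had 8.44, 7.55, 6.62 and 6.01 CPM in controls, 4.09, 4.71, 3.39 and 4.17 at 2.5 µM and 3.83, 3.18, 2.93 and 2.81 at 5 µM. All treated libraries were below all controls, and the doses overlapped. It fell by 0.81 on the log2 scale at 2.5 µM (SE 0.14, adjusted p = 7.57e-06) and by 1.19 at 5 µM (SE 0.15, adjusted p = 8.64e-09). Of the counts of gene and pseudogenes together, the 3 pseudogenes held 77.2% to 83.0% in control libraries, 77.5% to 82.0% in those at 2.5 µM and 73.3% to 80.8% in those at 5 µM. CYP51A1P3 had no count, CYP51A1P1 had 11.9, 6.52 and 4.78 CPM in the 3 groups and CYP51A1P2 had 15.3, 8.65 and 6.87. These fell at 5 µM as the gene did, by 1.32 and 1.16 (adjusted p = 3.9e-12 and 1.14e-11).

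The fall of CYP51A1 between the doses (-0.38 ± 0.16, adjusted p = 0.0366) was lost when any of 6 libraries was left out: 2.5 µM library 1 (-0.39, adjusted p = 0.0523), 2 (-0.31, 0.118) or 4 (-0.37, 0.0632), and 5 µM library 2 (-0.38, 0.0574), 3 (-0.34, 0.0948) or 4 (-0.31, 0.124). It was also lost in DESeq2 (-0.34, 0.106) and with a stricter count filter (-0.32, 0.0753). The same held with RLE (-0.34, 0.0584), upper quartile (-0.33, 0.0742) and library size scaling (-0.29, 0.115).

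**Figure D3:**
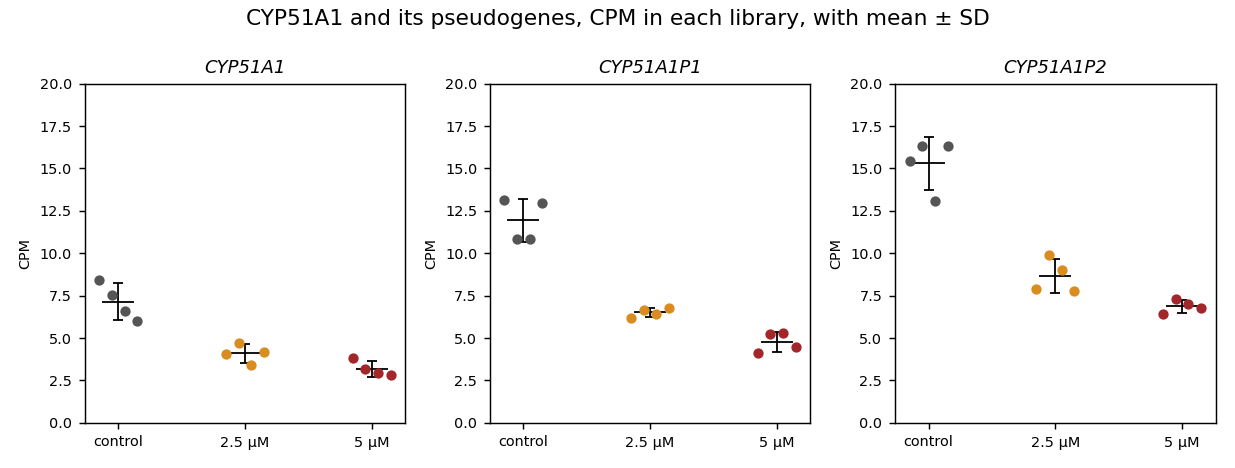
Normalised CPM (vertical axis, 0 to 20 in each panel) of CYP51A1 and its pseudogenes CYP51A1P1 and CYP51A1P2 in the 12 libraries (points), with mean and SD (n = 4), for control, 2.5 µM and 5 µM. All 3 step down from control to 2.5 µM, and the pseudogenes have more CPM than the gene in every group.

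The transport proteins went in different directions. NPC2, the soluble lysosomal carrier that hands cholesterol to NPC1, had 55.5, 54.4, 57.7 and 49.0 CPM in controls, 61.6, 59.2, 61.6 and 64.0 at 2.5 µM, and 85.1, 85.6, 88.7 and 100 at 5 µM. The groups rose with dose without overlap. The rise was 0.73 ± 0.06 at 5 µM (adjusted p = 5.03e-13) and 0.19 ± 0.06 at 2.5 µM (adjusted p = 0.00983), the latter lost without control 4 (0.14, adjusted p = 0.0540). NPC1, the membrane exporter, had 180, 188, 201 and 209 CPM in controls, 248, 238, 221 and 240 at 2.5 µM and 193, 193, 193 and 185 at 5 µM. It was highest at 2.5 µM (0.28 ± 0.05 against control, adjusted p = 6.37e-06) and fell from there to 5 µM (-0.31 ± 0.05, adjusted p = 9.06e-07), where it did not pass against control (-0.03, adjusted p = 0.600). With scaling by library size alone, which moved the median of all genes at 5 µM from -0.01 to 0.12, this last value was 0.11 (adjusted p = 0.0316).

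The log2 ratio of NPC1 to NPC2 counts within a library was 1.701, 1.79, 1.80 and 2.09 in controls, 2.01, 2.01, 1.84 and 1.90 at 2.5 µM and 1.18, 1.17, 1.12 and 0.89 at 5 µM. All 4 libraries at 5 µM lay below all 8 others. The difference from control at 5 µM was -0.76 (exact two-sided permutation p = 0.0286, adjusted 0.0429 over the 6 ratio tests) and from 2.5 µM was -0.85 (exact permutation p = 0.0286, adjusted 0.0429). At 2.5 µM the ratio was 0.09 above control, which did not pass (exact permutation p = 0.343, adjusted 0.343). STARD4, a soluble sterol carrier of the cytosol, had 41.8, 41.8, 33.0 and 34.9 CPM in controls, 25.7, 32.6, 35.8 and 24.7 at 2.5 µM and 29.6, 36.0, 33.3 and 32.9 at 5 µM. Its groups overlapped throughout: it fell at 2.5 µM (-0.36 ± 0.11, adjusted p = 0.00719) and did not pass at 5 µM (-0.21, adjusted p = 0.0841).

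For STARD4 the 5 µM comparison with control passed without control 3 (-0.29, adjusted p = 0.0174), 2.5 µM library 3 (-0.21, 0.0308) or 4 (-0.22, 0.0308), or 5 µM library 2 (-0.25, 0.0484). It also passed without a low count filter (-0.22, 0.00706) and with only the groups compared (-0.19, 0.0413).

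**Figure D4:**
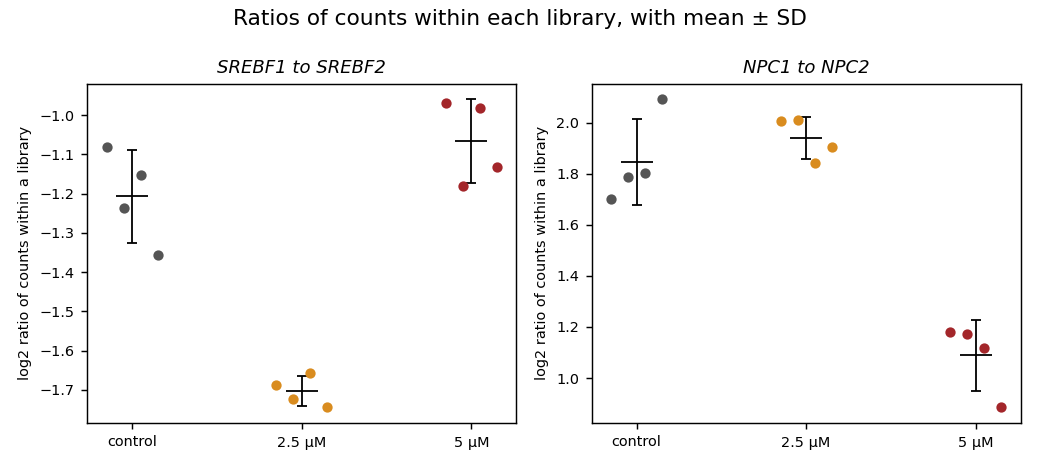
Log2 ratio of counts within each library (points), with group mean and SD (n = 4), of SREBF1 to SREBF2 (left) and NPC1 to NPC2 (right) for control, 2.5 µM and 5 µM. The SREBF ratio is lowest at 2.5 µM (-1.70 ± 0.04) and overlaps the controls at 5 µM, while the NPC ratio overlaps the controls at 2.5 µM and is lowest at 5 µM (1.09 ± 0.14).

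Other genes of the pathway were counted in 6 lists of 97 genes, of which 96 matched. Their counts at 5 µM are to be read against the 38.7% of all tested genes that rose and the 39.4% that fell. A list of 20 genes held those that process, degrade or sense SREBP and sterol, together with the promoter factors SP1, NFYA, NFYB and NFYC. Of these 20, 6 rose, 8 fell and 6 did not pass at 5 µM. Their median log2 fold change was -0.0006, against -0.01 over all tested genes. SP1, NFYB and NFYC were among the 6 that rose, and NFYA was among the 8 that fell. The 3 subunits of NF-Y, a factor that binds CCAAT boxes, did not move together. NFYA fell from 76.9 ± 3.68 CPM to 44.8 ± 1.76 and 34.6 ± 1.59 (log2 fold change -1.15 at 5 µM, adjusted p = 2.97e-18). NFYC rose from 39.8 ± 1.06 to 62.8 ± 1.19 and 72.2 ± 3.39 (0.86, adjusted p = 1.78e-15). Binding to the stretches printed above was not measured. NFYB, added after its values were seen, rose from 17.7 ± 3.25 to 24.5 ± 2.03 and 23.2 ± 1.18 CPM (0.46 and 0.38, adjusted p = 0.000131 and 0.000765). SP1, the GC box factor, rose (0.48 at 5 µM, adjusted p = 1.38e-11) and ERLIN1, a membrane protein of sterol-regulated degradation, fell (-0.96, adjusted p = 5.06e-17). Chosen after their values were seen, the proteases that release SREBP both fell at 5 µM, MBTPS1 by 0.23 and MBTPS2 by 0.45 on the log2 scale (adjusted p = 2.72e-05 and 7.68e-08), and MBTPS2 rose at 2.5 µM by 0.38 (adjusted p = 1.82e-06). INSIG2, chosen likewise, did not pass at either dose (0.18 and 0.16, adjusted p = 0.108 and 0.118).

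Enzymes that feed the pathway with acetyl-CoA and NADPH, or that make fatty acids beside it, had 3 rises, 10 falls and 2 not passed among 15 at 5 µM (median -0.41, all tested genes -0.01). At 2.5 µM they had 5 rises, 7 falls and 3 not passed (median -0.05, all tested genes 0.02), where 30.7% of all tested genes rose and 28.5% fell. FASN, fatty acid synthase, was at 484 ± 33.8 CPM in controls, 149 ± 8.43 at 2.5 µM and 148 ± 7.61 at 5 µM, with a log2 fold change of -1.70 and -1.71 (adjusted p = 9.28e-24 and 1.75e-24). SCD, the fatty acid desaturase, stepped down in the same way, from 428 ± 39.9 CPM to 178 ± 1.41 and 173 ± 8.54 (-1.27 and -1.31, adjusted p = 5.04e-20 and 3.03e-21). In the other direction FADS2, a desaturase of polyunsaturated fatty acids, rose from 29.2 ± 1.12 CPM to 47.4 ± 1.49 and 82.2 ± 3.99 (1.49 at 5 µM, adjusted p = 2.43e-21), and ACLY, which makes cytosolic acetyl-CoA from citrate, rose from 462 ± 16.8 to 733 ± 27.6 CPM at 5 µM (0.67, adjusted p = 7.77e-16).

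Of 9 genes that supply electrons to the sterol enzymes or hold them together, 4 rose and 4 fell at 5 µM, near the shares over all tested genes (38.7% and 39.4%). POR, which passes electrons to CYP51A1 and SQLE, rose (0.33, adjusted p = 1e-06), as did PGRMC1 (0.59, adjusted p = 3.18e-12), while the cytochrome b5 genes CYB5A and CYB5B fell (-0.84 and -0.28, adjusted p = 3.67e-13 and 1.25e-06). In the isoprenoid branch that uses farnesyl diphosphate for prenylation, dolichol and ubiquinone, 3 rose, 8 fell and 5 did not pass of 16 tested at 5 µM (median -0.21), and 3 rose, 2 fell and 11 did not pass at 2.5 µM (background 30.7% higher, 28.5% lower). The Rab prenyltransferase subunits RABGGTA and RABGGTB fell by 1.19 and 1.03 (adjusted p = 4.41e-16 and 1.94e-13), while the CAAX protease RCE1 and the ubiquinone side chain synthase subunit PDSS2 rose by 0.28 and 0.19 (adjusted p = 0.00580 and 0.0177).

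Among 23 genes of sterol transport and storage, 8 rose, 11 fell and 4 did not pass at 5 µM (background 38.7% higher, 39.4% lower). CAV1, the caveolar cholesterol-binding protein, rose from 150 ± 7.38 CPM to 358 ± 12.5 (1.254, adjusted p = 4.66e-22) and ORMDL3, a regulator of sphingolipid synthesis, from 42.2 ± 2.82 to 99.3 ± 1.64 (1.24, adjusted p = 2.65e-19). The oxysterol-binding protein relatives OSBPL5 and OSBPL1A fell by 1.02 and 0.78 (adjusted p = 6.62e-17 and 2.68e-15). Of 12 efflux and oxysterol genes, 5 had enough counts to test, of which 2 rose and 1 fell at 5 µM. HSD3B7, a bile acid synthesis enzyme, fell from 85.8 ± 4.45 CPM to 52.0 ± 2.64 and 15 ± 1.33 (-0.72 and -2.53, adjusted p = 3.32e-12 and 1.49e-25). ABCG4, a sterol exporter, had 0.14 ± 0.07 CPM in controls, 0.23 ± 0.09 at 2.5 µM and 1.61 ± 0.55 at 5 µM (log2 fold change 3.43 against control). It had enough counts to test only through the 5 µM libraries. A rise was then the only call possible, and ABCG4 is 1 of the 2 genes that rose.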

How the data were processed

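Poly-A RNA of 12 cultures was made into strand-marked libraries (TruSeq Stranded mRNA) and sequenced, per the labels' protocols. Raw read counts per Ensembl gene were deposited as 1 table without normalization. Per the submitters' processing notes, which give no roles, the build was GRCh37 and the tools were STAR 2.4.1d, featureCounts 1.4.6, cutadapt 1.7.1, edgeR 3.8.6, SAMtools 1.1, Bowtie2 2.2.4, bedtools 2.17.0 and Cufflinks 2.1.1. The strand setting, annotation release and handling of multiply mapped reads were not given in the sources used, so reads of overlapping genes (14 of the 26 members share exon bases with another gene, 0.47% to 18.6% of their exons) and of pseudogenes cannot be told apart from the member's own. These exon overlaps were taken from a GENCODE annotation on another genome build than the counts.

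Symbols were found for 51662 of 63152 genes, which hold 99.2% of counts. edgeR 4.0.16 in R 4.3.3 was fitted to all 12 libraries and 3 groups (9 residual degrees of freedom) with filterByExpr, TMM scaling and the robust quasi-likelihood test; Benjamini-Hochberg adjustment ran over all 16839 tested genes, with a threshold of 0.05. CPM use TMM-scaled library sizes, and errors are SD (n = 4) for CPM and SE for log2 fold changes. Library totals lay between 10733567 and 15116842. No pair of replicates was alike enough to be 1 library (chi-square divided by its degrees of freedom 1.72 to 5.75, 18 pairs). The test was checked on simulated data in which far fewer genes changed than were called here. That check does not show how the test behaves when most genes change.

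All 26 members are reported, and from each pathway list the 2 tested genes with the smallest p in each direction at 5 µM against control, except 1 gene that is not reported here. Members and lists were chosen with earlier results of these data known. Alternatives were other scalings (RLE, upper quartile, library size), other filters, DESeq2 1.42.0, only the groups compared, a replicate block, each library left out, pseudogenes added and a ratio pseudocount of 5 in place of 0.5.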

Additional observations from a re-analysis of the deposited data

Results flagged for a closer look

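In 4 of 78 groups of 4 libraries (26 genes, 3 conditions) 1 library lay apart from the other 3, by a share of the group's range above Dixon's 95% critical value; chance alone gives this in about 1 in 20 groups. SQLE had 48.2 CPM in control 3, against 52.4 to 53.1 in the other controls. SREBF2 had 215.6 CPM in the same control, against 205.2 to 205.6. LSS had 90.5 CPM in 5 µM library 4, against 101.2 to 101.8 in the other libraries at that dose, and NPC1 had 184.9 CPM there, against 192.6 to 193.0. Without control 3 or without 5 µM library 4, these genes kept the calls given above at 5 µM against control.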

How the results depend on the processing

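The 26 genes gave 78 log2 fold changes over the 3 comparisons, and 62 of these kept their side of the threshold under every alternative run, 61 of them with their direction. Of 1572 alternative values, 30 lost and 19 gained a call, and 9 changed sign, all of NPC1 or SCAP at 5 µM against control or of FDPS between doses, which had not passed before. Of these 9, NPC1 with library size scaling (0.11) passed the threshold. That scaling, the only one to move the median of all genes at 5 µM by over 0.1, also raised the count of cholesterol genes higher at 5 µM against control from 4 to 8, among them HMGCS1 (0.22, adjusted p = 0.0236) and HSD17B7 (0.27, adjusted p = 0.0156), and ended the calls of LSS (-0.11 at 2.5 µM and -0.11 between doses, adjusted p = 0.0520 and 0.0569) and of ACAT2 between doses (-0.10, adjusted p = 0.104). The other alternatives kept the counts of members lower and of members higher within 1.5 times.

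With each library left out in turn, the members lower and higher numbered 15 to 18 and 4 at 5 µM, 17 to 18 and 6 to 7 at 2.5 µM, and 11 to 12 and 9 to 10 between doses, and all genes called numbered 12856 to 13457, 9382 to 9955 and 10928 to 11868. MVK between doses passed without 2.5 µM library 2 (-0.24, adjusted p = 0.0448), and STARD4 without 2.5 µM library 3 (0.24, adjusted p = 0.0298). The SREBF1 to SREBF2 difference ranged from 0.09 to 0.18 at 5 µM, from -0.55 to -0.45 at 2.5 µM and from 0.60 to 0.68 between doses, and that of NPC1 to NPC2 from -0.81 to -0.67, from 0.05 to 0.18 and from -0.88 to -0.78.

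The labels do not say whether same-numbered libraries of different groups belong together. Same-numbered libraries correlated by -0.13 to 0.0745 in their deviations over 12 pairs, 0 of them over 0.1, and 2 of 12 correlated best with their own number. No pairing was seen, though a weak one could be missed with so few libraries. With the replicate block, members lower and higher numbered 16 and 4, 18 and 7, and 12 and 9 in the order above, and genes called 13091, 9828 and 11423. For the ratios, the block leaves an exact sign-flip test over 4 pairs, too few to pass: the differences were -0.50 and 0.64 for SREBF1 to SREBF2 (2.5 µM against control and between doses) and -0.76 and -0.85 for NPC1 to NPC2 (5 µM against control and between doses), each with an adjusted p of 0.15. Depth limits CYP51A1 (748 counts over 12 libraries) and TM7SF2 (770) most.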

Other observations

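Within the controls, libraries 1 and 2 lay above libraries 3 and 4 for several members and below them for several others. IDI1 had 121 and 121 CPM against 93.9 and 99.7, HMGCS1 123 and 130 against 107 and 114, STARD4 41.8 and 41.8 against 33.0 and 34.9, SC5D 61.8 and 66.0 against 52.8 and 57.4, and LBR 67.9 and 70.9 against 61.7 and 59.9. At 5 µM, libraries 3 and 4 lay above libraries 1 and 2 for HMGCS1 (140 and 138 CPM against 113 and 111) and NSDHL (94.7 and 87.7 against 73.4 and 78.6). These genes were chosen after their values were seen, and the labels name no batch that separates these libraries.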
